A study of Mus musculus with 7 samples.

Results

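The S100 genes encode small proteins that bind calcium through paired EF-hand loops, mostly as dimers, and then change shape and grip a partner protein. Inside cells they act on annexins, myosin and other parts of the cytoskeleton. Some are also released, and outside the cell they signal through receptors such as RAGE, the product of Ager, and TLR4. S100A8 and S100A9 are abundant in neutrophils and monocytes, S100A4 in motile fibroblasts and carcinoma cells, and S100B in glia, fat and cartilage. Described here are 10 S100 genes, chosen by symbol from a table of 53465 genes: S100a1, S100a4, S100a6, S100a8, S100a9, S100a10, S100a11, S100a13, S100a16 and S100b. The table holds 17 S100 genes in all. The 10 were listed with earlier results of the same counts in view, so their levels and differences are given as a description.

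EMT6 is a mouse mammary carcinoma line, of which 500000 cells were placed in the mammary fat pad of female BALB/c mice, which keep their own immune cells and stroma. EMT6-P tumors (n = 3) grew under an isotype control antibody, and EMT6-PTR tumors (n = 3) under αPD-L1, each at 250 μg per mouse every 3 days from day 1 to endpoint. EMT6-PTR, written PDR in the labels, is a cell variant that the authors derived from αPD-L1-treated mice whose tumors had become resistant. One further EMT6-PTR library (n = 1) is labelled a metastasis, with the same antibody and with no organ named. The labels do not say whether replicates came from separate mice, and the study treats replicates as technical where it does not say otherwise, so p-values measure the spread between these samples only. All are whole tumor tissue, in which a gene can be lower because fewer cells of a type are present or because each cell holds less of its RNA, and these cannot be told apart.

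Total estimated counts ranged from 20430110 to 25213472 over the 7 libraries. In EMT6-PTR replicate 2 a single gene, CT010467.1, took 13.8% of all counts. In EMT6-PTR replicate 3 the summed level of 8 fibroblast markers was 16030 CPM, against 3441 to 6026 CPM in the other 5 primary tumors, and that of 6 epithelial markers was 594 CPM, against 2097 to 2336 CPM. The defining epithelial keratin Krt8 was present in every library, at 503 to 1887 CPM, whereas Epcam and Cdh1 were at 3.38 to 10.5 CPM in the primary tumors. Levels are given as CPM, the counts of a gene scaled to a common library size, on an upper-quartile scale. Fold changes are log2 differences of EMT6-PTR from EMT6-P with their standard errors (SE), from edgeR's quasi-likelihood test over 15645 genes with Benjamini-Hochberg adjustment, called "edgeR adjusted p" below. All 10 genes passed the filter on low counts.

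In EMT6-PTR tumors most S100 genes were at lower levels than in EMT6-P tumors, but none passed the test. Fitted differences were below 0 for 9 of the 10, where 47.7% of all genes were below 0, and the median of the 10 was -0.48 on the log2 scale against 0.03 over all genes. Without EMT6-PTR replicate 3 that median was -0.81, and without replicate 1 or 2 it was -0.28 or -0.31, with S100a1 then above 0. S100a10, S100a11, S100a13 and S100a16 had all 3 EMT6-PTR tumors below all 3 EMT6-P tumors, a pattern shown by 11.8% of all genes. None had all 3 EMT6-PTR tumors above, which 9.52% of all genes did. edgeR called 0 of the 10 and 0 of all genes in either direction at an adjusted p under 0.05 (0% higher and 0% lower). At an unadjusted p under 0.05, 3 of the 10 were lower, namely S100a10, S100a11 and S100a16, where 5.57% of all genes were, and 1, S100b, was higher, where 5.84% of all genes were. S100b was also the only one of the 10 with a fitted difference of at least 2-fold upward, a size reached by 6.27% of all genes. Limma-voom called 0 genes, and DESeq2 called 138 higher and 143 lower genes, among them S100a10 (DESeq2 adjusted p = 1.33e-05) and S100a11 (DESeq2 adjusted p = 0.0122), both lower.

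**Figure D1:**
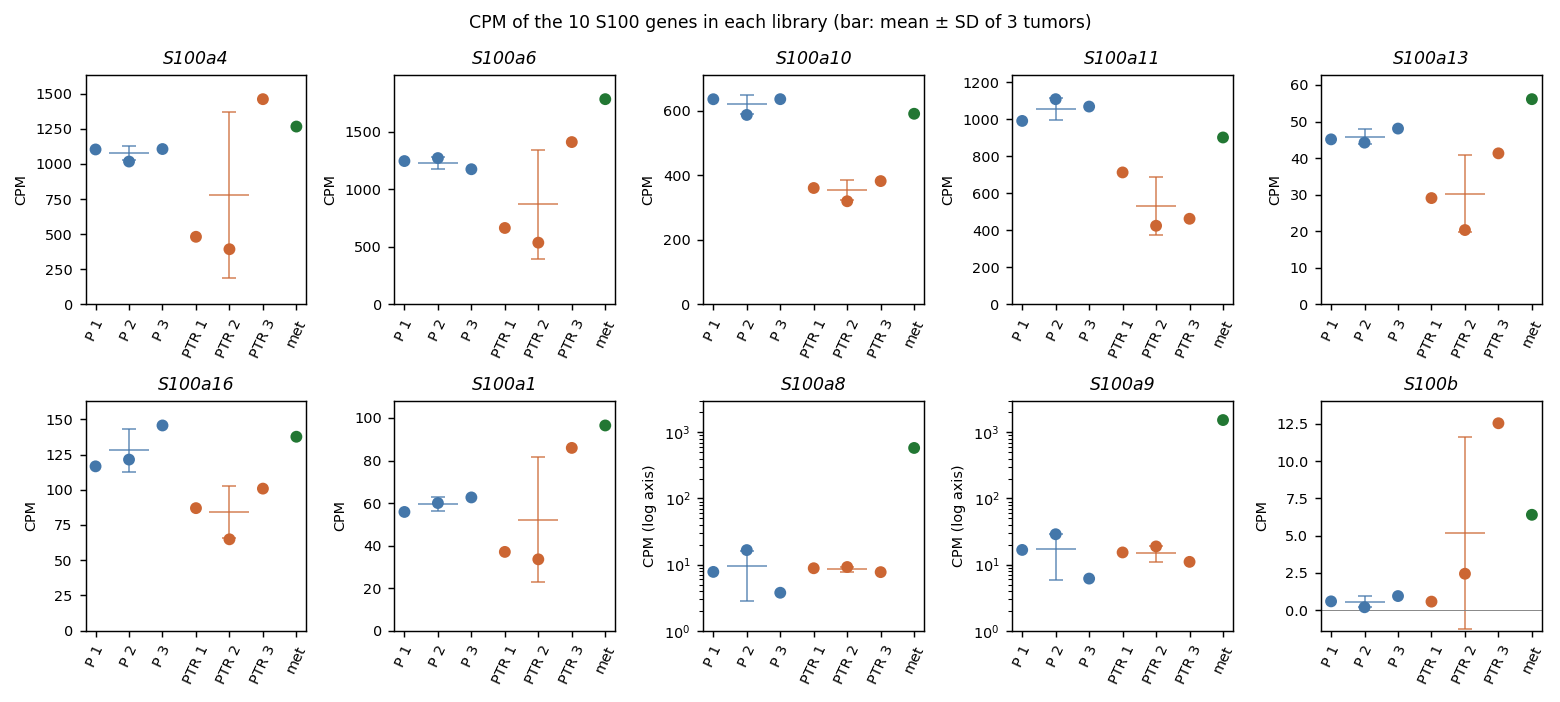
Level of each of the 10 S100 genes in CPM (vertical axis, logarithmic for S100a8 and S100a9) in each library (horizontal axis). Points are libraries (P, EMT6-P; PTR, EMT6-PTR; met, the metastasis), and the horizontal bar with whiskers is the mean ± SD of 3 tumors, whose lower whisker for S100b in EMT6-PTR passes below 0. S100a10, S100a11, S100a13 and S100a16 have no overlap between the primary tumor groups, and S100a8 and S100a9 reach 581 and 1536 CPM in the metastasis.

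S100A10 joins annexin A2 in a complex that binds plasminogen and carries membrane proteins to the cell surface. S100a10 lies at chr3:93555080-93564643 on the plus strand. It was at 635, 586 and 635 CPM in EMT6-P replicates 1 to 3 and at 360, 319 and 382 CPM in EMT6-PTR replicates 1 to 3. The 3 EMT6-PTR tumors were close to one another and all lay below the EMT6-P tumors. The difference was -0.81 ± 0.14 (log2, SE), with edgeR adjusted p = 0.421. The metastasis, at 590 CPM, was at the level of the EMT6-P tumors. Anxa2, the gene of its partner, was at 2386, 2280 and 2156 CPM in EMT6-P and at 1733, 1966 and 1241 CPM in EMT6-PTR, without overlap (-0.47 ± 0.21, edgeR adjusted p = 0.452). Per kilobase of exon, the ratio of S100a10 to Anxa2 within a library was 0.839 ± 0.060 (SD, n = 3) in EMT6-P tumors and 0.640, 0.4999 and 0.946 in EMT6-PTR replicates 1 to 3. The ratio was thus lower than in any EMT6-P tumor in replicates 1 and 2 but not in replicate 3, where Anxa2 was at its lowest.

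S100A11 binds annexin A1 and takes part in membrane repair and in the growth control of epithelial cells. S100a11 was at 991, 1109 and 1069 CPM in EMT6-P tumors and at 713, 425 and 463 CPM in EMT6-PTR tumors. Replicate 1 was the highest EMT6-PTR tumor and still below every EMT6-P tumor. The difference was -0.99 ± 0.23, the furthest below 0 among the 10, with edgeR adjusted p = 0.421. The metastasis was at 902 CPM, between the 2 groups. Reads of this gene are uncertain, because a transcript of the gene Gm12854 matches it at 99.0% over 297 bases. Gm12854 held 1628, 2183 and 1418 estimated counts in EMT6-P, 1308, 688 and 1024 in EMT6-PTR and 2437 in the metastasis, far below the counts of S100a11. With all near copies summed into S100a11 the difference was -0.98, with edgeR adjusted p = 0.421. The gene Anxa1 differed by less, at -0.25 ± 0.13 (edgeR adjusted p = 0.498), so the ratio of S100a11 to Anxa1 per kilobase was 8.25 ± 0.366 (SD, n = 3) in EMT6-P and 6.95, 3.69 and 4.35 in EMT6-PTR tumors. The study's preliminary list of secretory genes with lower levels in EMT6-PTR holds S100a11, S100a3, S100a7a and Fgf1. The study names RNA sequencing of these tumors as the first step to its signature, followed by a cytokine array and other assays on cells. The list is therefore not independent evidence of direction for the S100 genes. Fgf1 was above 0 in the fit used here (0.63 ± 0.44), against the direction of the list.

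Promoter letters are shown for S100a11, which had the lowest fitted difference, and for S100a8 and S100a9, which stood highest above the primary tumors in the metastasis. The stretches come from RefSeq on GRCm38.p6, from 250 bases upstream of the RefSeq start to the first base that GENCODE M21 annotates as exon, 5′ to 3′. Capitals mark TGANTCA, the AP-1 core motif, or TTNNGNAA, the C/EBP core motif, on either strand.
S100a11, chr3:93520246-93520487, plus strand: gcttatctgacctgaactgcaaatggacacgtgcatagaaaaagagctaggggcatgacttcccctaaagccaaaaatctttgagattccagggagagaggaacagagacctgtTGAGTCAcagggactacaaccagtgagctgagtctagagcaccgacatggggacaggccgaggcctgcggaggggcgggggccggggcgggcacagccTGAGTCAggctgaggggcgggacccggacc
S100a8, chr3:90668821-90668977, plus strand: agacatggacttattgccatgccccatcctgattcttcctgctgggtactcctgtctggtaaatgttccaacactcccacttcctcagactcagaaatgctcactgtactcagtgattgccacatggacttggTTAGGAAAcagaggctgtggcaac
S100a9, chr3:90695722-90695971, minus strand: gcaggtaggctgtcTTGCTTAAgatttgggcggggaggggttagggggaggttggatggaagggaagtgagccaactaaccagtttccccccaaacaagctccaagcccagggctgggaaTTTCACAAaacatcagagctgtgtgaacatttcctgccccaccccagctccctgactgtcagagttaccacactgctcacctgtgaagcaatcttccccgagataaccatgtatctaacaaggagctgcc
S100a11 holds TGANTCA at 136 and 38 bases upstream of the RefSeq start. S100a8 holds TTNNGNAA at 117 bases upstream, and also TATAAA at 30 bases upstream, inside the exon that GENCODE annotates and therefore not printed. S100a9 holds TTNNGNAA at 236 and 130 bases upstream. None of the motifs overlap. Promoters were found for 9 of the 10 genes, not for S100a10. Of the 9, 2 held TTNNGNAA (S100a8 and S100a9), 2 held TGANTCA (S100a11 and a second promoter of S100a16), 2 held TATAAA (S100a4 and S100a8) and 0 held TTCNNNGAA, the STAT motif. Among 32851 promoters of the same length, the share with each motif was 36.9% for TTNNGNAA, 6.75% for TGANTCA, 12.4% for TATAAA and 7.02% for TTCNNNGAA. A match is a description of the letters and not of binding.

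S100A4, also known as metastasin, binds non-muscle myosin, and S100A6, calcyclin, binds annexins and the protein encoded by Cacybp. Both genes were among the most abundant of the 10, and both were low in EMT6-PTR replicates 1 and 2 and high in replicate 3. S100a4 was at 1103, 1017 and 1106 CPM in EMT6-P and at 481, 393 and 1461 CPM in EMT6-PTR replicates 1 to 3. Replicates 1 and 2 lay below and replicate 3 above every EMT6-P tumor, so the groups overlapped. S100a6 had the same order, with 1246, 1272 and 1175 CPM in EMT6-P and 664, 537 and 1411 CPM in EMT6-PTR. The differences were -0.47 ± 0.50 for S100a4 (edgeR adjusted p = 0.705) and -0.50 ± 0.37 for S100a6 (edgeR adjusted p = 0.587). Without replicate 3 they were -1.30 and -1.04. In the metastasis S100a4 was at 1266 CPM and S100a6 at 1784 CPM, the latter above all 6 primary tumors. Replicate 3 was also the library with the high fibroblast and low epithelial marker sums given above: Dcn, a proteoglycan of fibroblasts, was at 3327 CPM there and at 32.0 to 104 CPM in the other primary tumors, while Thy1 was at 6.64 CPM against 62.8 to 113 CPM. The part of such cells in the S100a4 and S100a6 levels was not tested. Within a library the ratio of S100a4 to S100a6 per kilobase kept between 1.70 and 2.42 in the 6 primary tumors and was 1.66 in the metastasis, a narrower range than the 3.72-fold between the lowest and highest S100a4 level.

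S100A1 regulates calcium pumps and channels in muscle, and S100A13 takes part in the export of FGF1 and interleukin-1 alpha. S100a1 (chr3:90511034-90514392, minus strand) and S100a13 (chr3:90514435-90524581, plus strand) start back to back, and the 42 bases between their GENCODE starts are shown because one stretch precedes both genes.
Between S100a1 and S100a13, chr3:90514393-90514434, plus strand: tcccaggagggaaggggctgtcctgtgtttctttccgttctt
S100a1 was at 55.8, 60.0 and 62.7 CPM in EMT6-P and at 37.1, 33.6 and 85.9 CPM in EMT6-PTR tumors. As for S100a4, replicates 1 and 2 were below and replicate 3 above the EMT6-P range (-0.19 ± 0.37, edgeR adjusted p = 0.847). S100a13 was at 45.1, 44.2 and 48.1 CPM in EMT6-P and at 29.1, 20.3 and 41.3 CPM in EMT6-PTR tumors. All 3 were lower than in EMT6-P, though replicate 3 by little (-0.60 ± 0.26, edgeR adjusted p = 0.443). The ratio of S100a1 to S100a13 per kilobase was 1.28, 1.40 and 1.34 in EMT6-P, 1.31, 1.70 and 2.14 in EMT6-PTR and 1.77 in the metastasis. The neighbours therefore did not keep 1 ratio in EMT6-PTR replicates 2 and 3. The skeletal muscle marker sum was 642, 13.8 and 374 CPM in EMT6-P and 4289, 9.03 and 6.10 CPM in EMT6-PTR tumors. The part of muscle in the S100a1 levels was not tested.

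S100A16 is a broadly expressed member of the family. S100a16 was at 117, 121 and 146 CPM in EMT6-P and at 87.0, 64.9 and 101 CPM in EMT6-PTR tumors. The groups did not overlap (-0.60 ± 0.20, edgeR adjusted p = 0.427), and the metastasis, at 138 CPM, was within the EMT6-P range. Counted by tumor, 7 of the 10 genes in EMT6-PTR replicate 1 were below all EMT6-P tumors (32.5% of all genes), 7 in replicate 2 (38.1% of all genes) and 4 in replicate 3 (42.7% of all genes). In replicate 3 another 4, S100a1, S100a4, S100a6 and S100b, were above all EMT6-P tumors, against 39.8% of all genes. The 10 genes together took 0.425%, 0.418% and 0.440% of all counts in EMT6-P tumors and 0.258%, 0.161% and 0.406% in EMT6-PTR tumors. Their share in the metastasis was 0.712% (95% Wilson interval 0.708% to 0.715%, counting error only). The total of EMT6-PTR replicate 2 includes the 13.8% taken by CT010467.1, which lowers the share in that library.

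**Figure D2:**
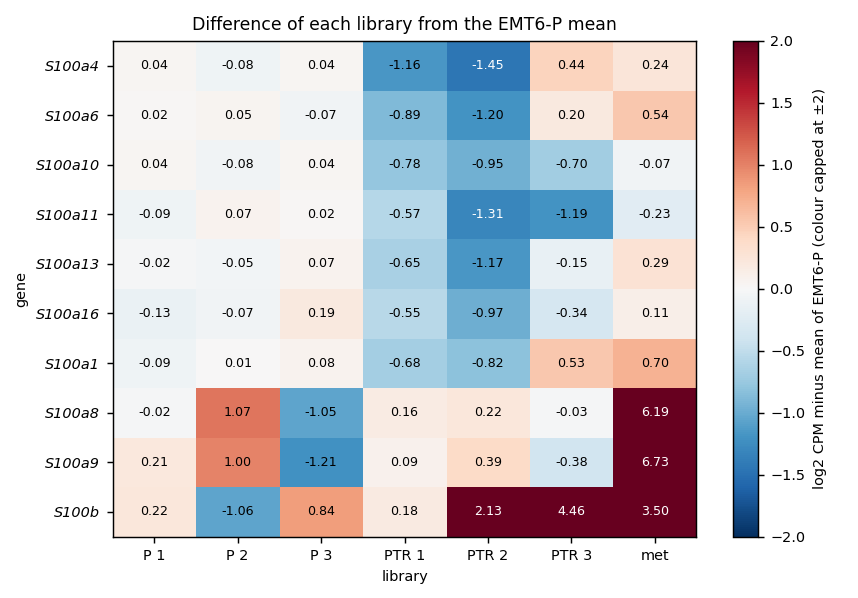
Difference of each library (columns) from the mean of the 3 EMT6-P tumors for each S100 gene (rows), in log2 CPM with a prior count of 2, printed in each cell and shown as colour that stops at 2 above and below 0. EMT6-PTR replicates 1 and 2 are below the EMT6-P mean in the same 7 genes, replicate 3 is above it for S100a4, S100a6, S100a1 and, at 4.46, S100b, and S100a8 and S100a9 stand at 6.19 and 6.73 in the metastasis.

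The S100 genes are short, and short genes as a whole were lower in EMT6-PTR tumors. Of the 10, 6 have up to 1 kb of exon and 4 between 1 and 2 kb. Over 309 tested protein-coding genes of up to 1 kb, the median difference from the EMT6-P mean was -0.34, -0.43 and -0.19 in EMT6-PTR replicates 1 to 3, and over 2356 genes longer than 8 kb it was 0.17, 0.17 and 0.13. In the metastasis these medians were 0.01 and -0.03. From the fit, the median log2 fold change of genes up to 1 kb was -0.29, and that of genes of 1 to 2 kb was -0.18. S100a10 and S100a16, with 1212 and 1617 bases of exon, and S100a4, S100a6, S100a11 and S100a13 had fitted differences further below 0 than the medians of their length classes, while S100a1, S100a8, S100a9 and S100b did not. The part of length in the S100 differences was not tested.

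**Figure D3:**
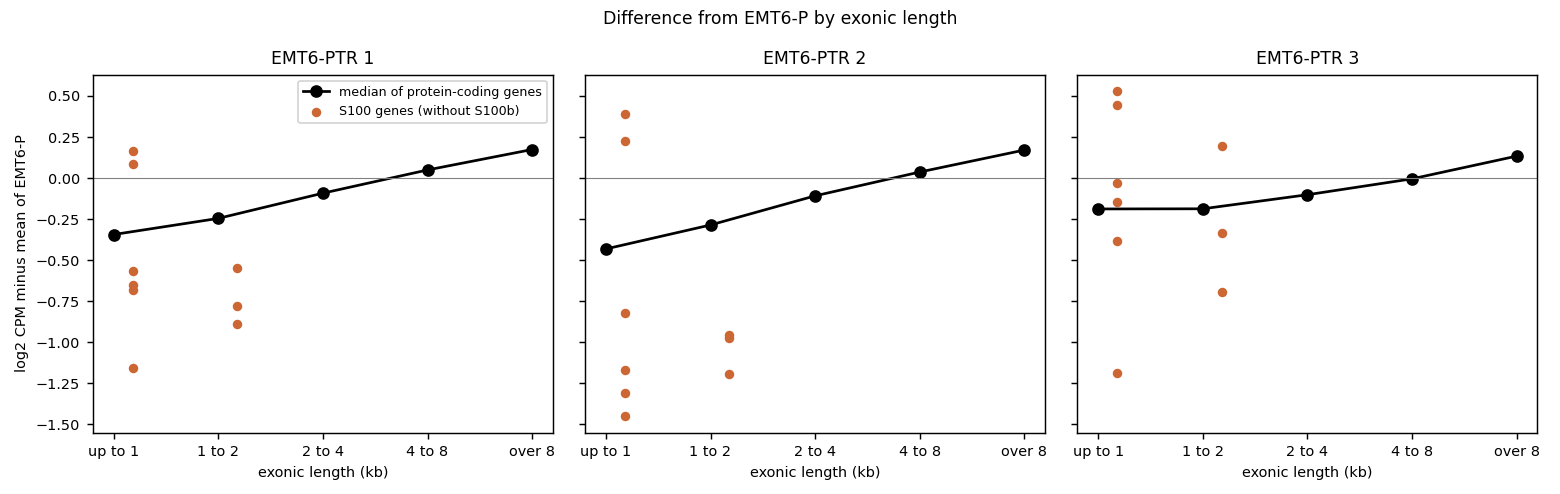
Difference from the EMT6-P mean in log2 CPM (vertical axis) against exonic length in kb (horizontal axis, 5 classes) for EMT6-PTR replicates 1 to 3. The black line joins the medians of protein-coding genes, and orange points are the S100 genes, S100b left out. The line climbs from -0.34, -0.43 and -0.19 in the shortest class to 0.17, 0.17 and 0.13 in the longest.

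S100A8 and S100A9 form calprotectin, a heterodimer that withholds zinc and manganese from microbes, binds arachidonic acid for the NADPH oxidase and signals through TLR4 and RAGE. Both genes were low in every primary tumor and very high in the metastasis. S100a8 (chr3:90668978-90670035, plus strand) was at 7.75, 16.6 and 3.75 CPM in EMT6-P and at 8.81, 9.19 and 7.69 CPM in EMT6-PTR tumors, with 581 CPM in the metastasis. S100a9 (chr3:90692632-90695721, minus strand) was at 16.7, 28.8 and 6.14 CPM in EMT6-P, at 15.3, 18.8 and 10.995 CPM in EMT6-PTR and at 1536 CPM in the metastasis. In both genes EMT6-P replicate 2 was the highest primary tumor, EMT6-P replicate 3 was the lowest, and the EMT6-PTR tumors lay between them. The differences were -0.13 ± 0.51 for S100a8 (edgeR adjusted p = 0.932) and -0.20 ± 0.53 for S100a9 (edgeR adjusted p = 0.895). Both directions rested on EMT6-P replicate 2, without which they were 0.57 and 0.39. The metastasis was 67.9-fold above the mean of the EMT6-PTR tumors for S100a8 and 102-fold for S100a9, while against the EMT6-P mean it was 62.1-fold and 89.3-fold higher. Of the 15645 genes that passed the filter on the primary tumors, 0.211% were at least 64-fold above the EMT6-PTR mean by log2 level. Genes seen almost only in the metastasis, such as Ngp and Sftpc, did not pass that filter and are missing from this share. S100a8 was near the 64-fold limit, at 6.07 on the log2 scale and at 5.999 without EMT6-PTR replicate 3. The metastasis comparison is of 1 library with 3 and has no replicate check.

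The 2 genes kept a similar ratio to each other in the primary tumors and had a higher one in the metastasis. Per kilobase, S100a9 to S100a8 was 2.86, 2.31 and 2.18 in EMT6-P, 2.31, 2.72 and 1.90 in EMT6-PTR and 3.51 in the metastasis. The means were 2.45 ± 0.361 (SD, n = 3) and 2.31 ± 0.411 (SD, n = 3), which differed by less than either spread, while the metastasis was above all 6 primary tumors.

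**Figure D4:**
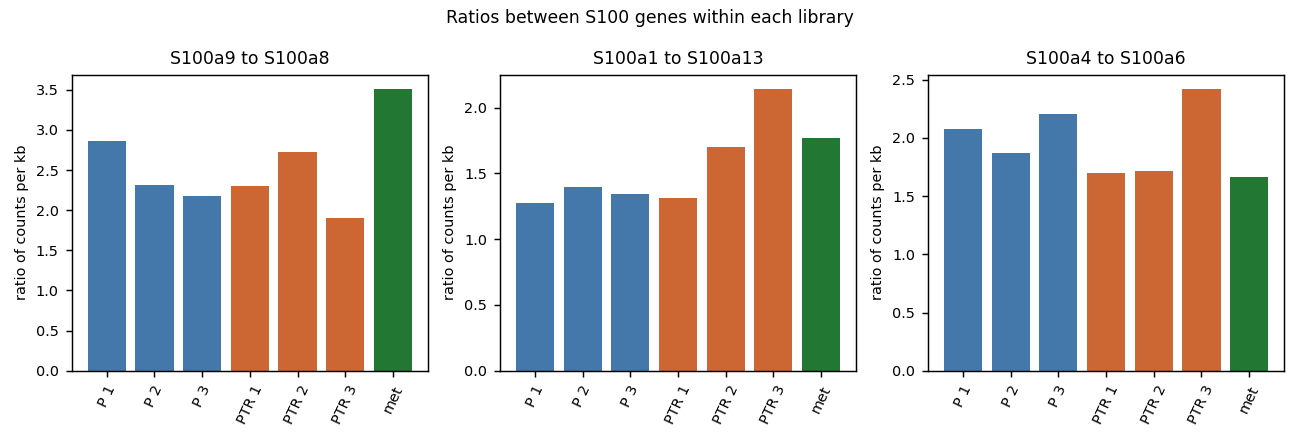
Ratio of 2 S100 genes, in estimated counts per kb of exon (vertical axis, from 0), in each library (horizontal axis; P, EMT6-P; PTR, EMT6-PTR; met, metastasis). S100a9 to S100a8 spans 1.90 to 2.86 in primary tumors and 3.51 in the metastasis, S100a1 to S100a13 spans 1.28 to 2.14, and S100a4 to S100a6 spans 1.66 to 2.42.

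Neutrophil markers were also high in the metastasis. The summed level of 12 markers was 80.2 to 92.1 CPM in EMT6-P, 55.6 to 105 CPM in EMT6-PTR and 1722 CPM in the metastasis. Of the 7 tested, 6 were above all primary tumors there, where 20.9% of all genes were. Retnlg was at 0.141 to 1.55 CPM in primary tumors and at 475 CPM in the metastasis, Il1r2 at 5.32 to 8.35 CPM and 311 CPM, and Cxcr2, a chemokine receptor of neutrophils, at 1.31 to 2.94 CPM and 161 CPM. The exception was Padi4, at 32.5 CPM in the metastasis and 27.3 to 77.0 CPM in primary tumors. Padi4 was also the largest part of the marker sum in each primary tumor. It made up 57.3 of 80.2 CPM in EMT6-P replicate 1 and 27.3 of 55.6 CPM in EMT6-PTR replicate 3. The primary tumor sums therefore mostly follow Padi4, and the other markers together were lower there than the sums show. Ly6g, Ngp, Camp and Ltf were at 0 in at least 1 primary tumor and at 2.35, 116, 9.18 and 18.2 CPM in the metastasis. The macrophage marker sum, at 1110 CPM, was just below the range of the primary tumors (1122 to 1579 CPM). Its members differed: Adgre1, Cd68, C1qa, C1qb and Ms4a7 were below all primary tumors, Csf1r and Mrc1 within their range and Itgam above all. Lung epithelial markers reached 8325 CPM in the metastasis against 42.0 to 92.3 CPM in primary tumors, and Sftpc, Sftpa1, Sftpb, Sftpd, Scgb1a1 and Scgb3a2 were each at 0 in some or all of the latter. The part of these cells in the S100a8 and S100a9 levels was not tested.

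**Figure D5:**
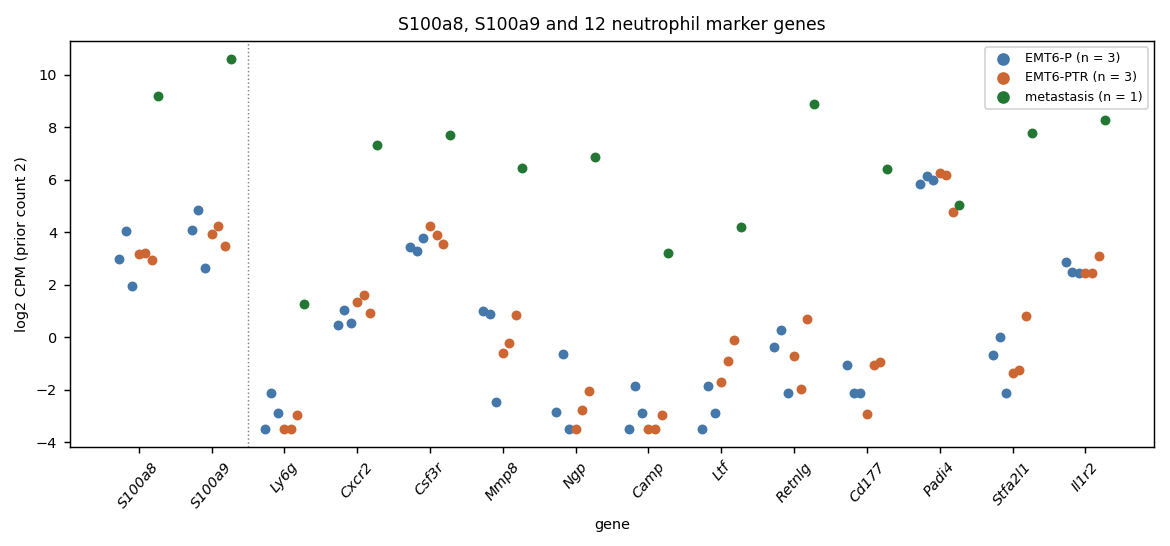
Level of S100a8, S100a9 and 12 neutrophil markers (horizontal axis) in log2 CPM with a prior count of 2 (vertical axis). Blue points are EMT6-P tumors, orange points EMT6-PTR tumors and green points the metastasis. Green lies above the other points for every gene but Padi4.

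The other S100 genes were also higher in the metastasis than in the EMT6-PTR mean, by less. In all, 5 of the 10 were above all 6 primary tumors, where 20.9% of all genes were, and these were S100a1 (96.5 CPM), S100a6 (1784 CPM), S100a8, S100a9 and S100a13 (56.1 CPM). By mean log2 level, 5 of the 10, S100a1, S100a6, S100a8, S100a9 and S100b, were at least 2-fold above the EMT6-PTR tumors, where 12.4% of all genes were. This count was 4 without EMT6-PTR replicate 1, 3 without replicate 2 and 7 without replicate 3, and only S100a8 and S100a9 were in it each time. The S100b difference of 1.24 ranged from 0.20 to 2.34 among these, and its level in the metastasis was below that of EMT6-PTR replicate 3. The remaining differences were 0.96 for S100a4, 0.74 for S100a10, 0.80 for S100a11, 0.95 for S100a13 and 0.73 for S100a16 on the log2 scale. Short genes as a class were also higher in the metastasis than in EMT6-PTR tumors. Over genes of up to 1 kb the median difference from EMT6-P was 0.01 in the metastasis and -0.34, -0.43 and -0.19 in EMT6-PTR replicates 1 to 3. Over genes of 1 to 2 kb it was 0.01 and -0.25, -0.29 and -0.19. The part of length in these differences was not tested.

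S100B is secreted by glia and is also found in fat and cartilage. S100b (chr10:76253853-76261159, plus strand) was barely detected in EMT6-P tumors, with 12, 4 and 20 counts, or 0.582, 0.186 and 0.938 CPM. In EMT6-PTR replicates 1 to 3 it had 13, 44 and 323 counts, or 0.564, 2.44 and 12.6 CPM, and in the metastasis 161 counts, or 6.40 CPM. Replicate 1 was within the EMT6-P range and replicates 2 and 3 were above it. The difference was 3.18 ± 1.18 (edgeR adjusted p = 0.427), and without replicate 3 it was 1.37. S100b is on the study's preliminary list of secretory genes with higher levels in EMT6-PTR. That list began from RNA sequencing of these tumors and so is not independent evidence of direction. The gene overlaps Dip2a on the opposite strand, which had 1000 to 1738 counts in the primary tumors and 848 in the metastasis. The strand setting of the counting is not given in the sources used here. Schwann and glial markers summed to 41.5 to 50.7 CPM in EMT6-P and 47.0, 82.0 and 55.4 CPM in EMT6-PTR, with Foxd3 and Cdh19 at 0 in all EMT6-P tumors. Adipocyte markers summed to 9.71 to 20.2 CPM and 20.3 to 30.1 CPM, and cartilage and tendon markers to 89.0 to 119 CPM and 72.9 to 95.4 CPM. None of these sums was highest in replicate 3, where S100b was. Among the cartilage and tendon markers, Comp was highest there, at 21.8 CPM against 0.0929 to 2.16 CPM in the other primary tumors, while Sox9 and Scx were at their lowest there, at 35.5 and 11.3 CPM against 46.7 to 83.2 and 26.0 to 51.2 CPM. Of the cartilage and tendon markers, Comp and Matn3 are on the same list of the study as S100b. Matn3 was highest in EMT6-PTR replicate 2, at 8.53 CPM, and was at 3.46 CPM in replicate 3.

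Levels of different genes are ranked per kilobase of exon, where the length joins all annotated exons of a gene and counts each base once. The order rests on that length. By mean CPM in EMT6-P, S100a6 (1231) was above S100a4 (1075) and S100a11 (1057). Per kilobase the order in EMT6-P was S100a11 (2068 ± 117 CPM per kb, SD, n = 3), S100a4 (1841 ± 86.8), S100a6 (900 ± 36.7), S100a10 (510 ± 23.2), S100a1 (85.7 ± 4.96), S100a16 (79.1 ± 9.62), S100a13 (64.1 ± 2.82), S100a9 (33.0 ± 21.7), S100a8 (13.5 ± 9.46) and S100b (0.383 ± 0.254). The means of S100a1 and S100a16 differed by less than the larger of their SDs and by more than the smaller. The same held for S100a9 and S100a8. Within each EMT6-P tumor S100a1 was above S100a16 and S100a9 above S100a8. In EMT6-PTR the means ran from S100a4 (1333 ± 1015) and S100a11 (1044 ± 306), which differed by less than their spread, to S100b (3.49 ± 4.35). In the metastasis S100a9 was highest of the 10, at 2943 CPM per kb, ahead of S100a4 at 2168 and S100a11 at 1765. Among EMT6-P tumors 7 of the genes varied by 1.08-fold to 1.25-fold between lowest and highest, S100a8, S100a9 and S100b by 4.42-fold, 4.69-fold and 5.05-fold. Among EMT6-PTR tumors S100a8 and S100a10 varied least, by 1.20-fold, and S100b most, by 22.2-fold, followed by S100a4 at 3.72-fold.

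Over the 6 primary tumors some members moved together. The points share libraries, depth and grouping, and the correlations of log2 CPM are given as a description. Pearson's r was 0.99 for S100a4 with S100a6, 0.97 for S100a1 with S100a4, 0.96 for S100a8 with S100a9, 0.96 for S100a13 with S100a16 and 0.91 for S100a10 with S100a11. It was -0.81 for S100a11 with S100b and -0.05 for S100a11 with S100a8. Chromosome 3 holds 9 of the 10 genes, of which 7 lie with 5 other S100 genes in a cluster of 184.7 kb, and S100a11 and S100a10 lie further along. S100a1 and S100a8 in the same cluster had r = -0.18.

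Outside the 10, the tested genes of a mean of at least 5 CPM whose log2 CPM was most like S100a8 over the 7 libraries were Lilr4b, Ccrl2, Ccl3 and Dusp1 (r = 0.98 to 0.99), and for S100a9 they were Lilr4b, Ccl3, Ccrl2 and Pim1 (r = 0.99 to 1.00). Lilr4b averaged 68.0 CPM in EMT6-P and 62.3 CPM in EMT6-PTR and was at 496 CPM in the metastasis, and Ccl3, a chemokine, was at 5.55, 3.91 and 200.5 CPM. The high point of the metastasis is shared by these genes: over the 6 primary tumors alone, those nearest to S100a8 included Egln1, Mettl25 and Tiparp, and those nearest to S100a9 were Egln1, Rbpj, Lilr4b and Tiparp. For S100a4 the 4 over 7 libraries were Cuedc2, Smdt1, Srp9 and Tmem41a, for S100a11 Brms1, Arpc3, Dbi and Rab1b, and for S100b Trim26, Gramd3, Ankrd12 and Map2. Over the 6 primary tumors Cuedc2, Rab1b, Trim26 and Map2 stayed among the 4. Many genes had a correlation this high. Over the 7 libraries r was at least 0.95 for 77 genes with S100a8, 85 with S100a9, 74 with S100a4, 21 with S100a11 and 94 with S100b. Over the 6 primary tumors these counts were 9, 8, 161, 139 and 181. The 4 named per gene are therefore not special partners.

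Of the other 7 S100 genes in the table, 3 passed the filter and 0 were called. S100a3 was at 1.41, 1.16 and 1.27 CPM in EMT6-P and at 0.738, 0.609 and 0.389 CPM in EMT6-PTR tumors, without overlap (-1.14 ± 0.37, edgeR adjusted p = 0.424). S100a7a was at 1.92 to 3.72 CPM and 0.350 to 2.22 CPM (-1.23 ± 0.66, edgeR adjusted p = 0.491). S100a14, an epithelial member, was at 17.1, 17.1 and 18.3 CPM in EMT6-P and at 20.8, 55.1 and 7.46 CPM in EMT6-PTR, with 61.4 CPM in the metastasis. In EMT6-PTR replicate 3, where the epithelial marker sum was lowest, S100a14 was at its lowest too. Of the markers in that sum, Krt8, Krt18 and Cdh1 were lowest there, whereas Krt19, Epcam and Krt7 were not. A link to S100a14 was not tested. S100g, the vitamin D-dependent calbindin, had 186 counts in the metastasis, 2 counts in EMT6-PTR replicate 1 and 0 in the other primary tumors. S100z had 0 counts in all 7 libraries, where a count of 0 allows up to 3 counts. S100a2 and S100a5 had at most 4 counts in any library.

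Of 9 genes of receptors of secreted S100 proteins, 0 passed the test. Of the 9, 7 had fitted differences above 0 (52.3% of all genes), and 2, Ager and Tlr4, had all EMT6-PTR tumors above all EMT6-P tumors (9.52% of all genes). Ager, the gene of RAGE and an abundant transcript of alveolar cells in lung, was at 1.60, 1.44 and 1.78 CPM in EMT6-P and at 3.12, 25.9 and 11.9 CPM in EMT6-PTR (3.08 ± 0.74, edgeR adjusted p = 0.421). In the metastasis Ager was at 752 CPM, beside the lung epithelial marker sum given above. Like S100b, Ager is on the study's list that began from RNA sequencing of these tumors. Tlr4 was at 23.7, 19.0 and 17.1 CPM in EMT6-P, at 27.7, 27.4 and 24.1 CPM in EMT6-PTR and at 31.3 CPM in the metastasis, with groups close together (0.41 ± 0.17, edgeR adjusted p = 0.438). Cd69, which binds S100A8 and S100A9 and marks activated lymphocytes, was at 5.62 to 7.39 CPM in EMT6-P and at 6.51, 22.8 and 34.1 CPM in EMT6-PTR (1.72 ± 0.56, edgeR adjusted p = 0.427). Cd36, a fatty acid receptor, was at 168 CPM in the metastasis against 6.66 to 20.1 CPM in primary tumors.

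Of 15 tested genes of intracellular partners, 9 had differences below 0 (47.7% of all genes) and 0 were called. A further count, of genes with all EMT6-PTR tumors below all EMT6-P tumors, gave 4 of 15, Anxa1, Anxa2, Cacybp and Sugt1 (11.8% of all genes), and 0 had all above (9.52%). Cacybp, whose product binds S100A6, was at 148, 138 and 140 CPM in EMT6-P and at 117, 103 and 84.7 CPM in EMT6-PTR (-0.48 ± 0.15, edgeR adjusted p = 0.423). Ryr1, a calcium release channel of muscle that S100A1 binds, was at 139 CPM in EMT6-PTR replicate 1 and at 0.665 to 21.8 CPM in the other primary tumors, and the muscle marker sum was highest in the same library. Fgf1, exported with S100A13, was at 5.09, 7.15 and 9.24 CPM in EMT6-P and 6.94, 7.98 and 18.3 CPM in EMT6-PTR (0.63 ± 0.44, edgeR adjusted p = 0.575), with overlap. It is on the study's list of genes with lower levels. Il1a was at 110.7 CPM in the metastasis and at 0.272 to 4.97 CPM in primary tumors. Syt1 had 0 counts in all libraries. Myh9, the non-muscle myosin that S100A4 binds, was at 1365 to 1629 CPM in EMT6-P and at 1714, 1819 and 546 CPM in EMT6-PTR, so that it was lowest where S100a4 was highest.

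Of the 6 genes of the NADPH oxidase, to which calprotectin brings arachidonic acid, 0 were called. Differences were above 0 for 2 of them (52.3% of all genes). Cyba (-0.44 ± 0.14, edgeR adjusted p = 0.421) and Ncf4 (-0.52 ± 0.31, edgeR adjusted p = 0.520) were lower in all EMT6-PTR than in all EMT6-P tumors. The share of all genes that did so was 11.8%. Cybb was higher in all EMT6-PTR tumors (0.29 ± 0.13, edgeR adjusted p = 0.444), as were 9.52% of all genes. In the metastasis 5 of the 6 were above all primary tumors (20.9% of all genes), with Cyba at 121 CPM against 44.1 to 74.0 CPM. Of 6 tested genes of transcription factors with a known place at the S100a8 and S100a9 promoters, 0 were called. Above all primary tumors in the metastasis were 5 of them (20.9% of all genes). Cebpd, a C/EBP factor of myeloid and acute-phase genes, was at 17.3 to 19.9 CPM in EMT6-P, at 20.2, 16.3 and 53.3 CPM in EMT6-PTR and at 274 CPM in the metastasis. Stat3 was at 163 to 174 CPM in EMT6-P, 185 to 268 CPM in EMT6-PTR, without overlap (0.36 ± 0.18, edgeR adjusted p = 0.470), and 405 CPM in the metastasis.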

How the data were processed

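RNA was measured in 3 tumor libraries each of EMT6-P and EMT6-PTR, whose separate origin is not stated, and in 1 metastasis. The deposited values are estimated counts per gene: the authors made stranded polyadenylated libraries, checked reads with FastQC 0.11.5, aligned them with STAR 2.6.0a to GRCm38 and counted with RSEM 1.3.1. Read sharing by estimation makes near-identical genes uncertain. Of 53465 identifiers, 53274 had a symbol and 53360 a position in GENCODE M21.

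The expected counts were rounded. EMT6-PTR was compared with EMT6-P in edgeR 4.0.16 (filterByExpr, upper-quartile scaling, glmQLFit and glmQLFTest, Benjamini-Hochberg over 15645 genes, threshold 0.05), in R 4.3.3. The SE is the log2 fold change divided by the square root of F. The metastasis, outside the fit, was scaled by its own upper quartile. Near copies were found with blastn 2.17.0. Alternatives were TMM scaling, DESeq2 1.42.0, limma-voom (limma 3.58.1), other filters, the metastasis as a further group, a replicate block, a prior count of 0.5, no division by length and leaving out each tumor. Summing near copies and likeness over the 6 primary tumors were added after seeing the data.

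All 10 genes are described. Of other lists, those at 0 in every library, Ager, Tlr4, Anxa2 and up to 4 with the largest fitted difference could be named. The 4 genes most like S100a4, S100a8, S100a9, S100a11 and S100b follow Pearson's r. Other genes were named after their values were seen. One of the most like genes is not reported here. Genes and lists were chosen with earlier results of these data known.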

Additional observations from a re-analysis of the deposited data

How the results depend on the processing

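Under DESeq2 138 genes were called higher and 143 lower, including S100a10 (-0.79) and S100a11 (-0.97), where edgeR called 0, and the cause was not tested. S100a8 and S100a9 changed sign under limma-voom (0.11 and 0.0066), with the replicate block (0.12 and 0.023) and without EMT6-P replicate 2 (0.57 and 0.39), and S100a1 did so without EMT6-PTR replicate 1 or 2 (0.0051 and 0.049), the cause again not tested. With the replicate block 0 genes were called, and 586 and 682 genes were higher and lower at an unadjusted p under 0.05, against 914 and 872. Deviations of same-numbered samples correlated at 0.26, 0.25 and 0.04, so the numbers were not taken to pair samples. Leaving out each tumor in turn, 0 genes were called, and log2 differences ranged from -0.75 to 0.05 for S100a1, -0.51 to 0.57 for S100a8, -0.60 to 0.39 for S100a9, -1.30 to -0.15 for S100a4, -1.04 to -0.24 for S100a6, -0.87 to -0.74 for S100a10, -1.25 to -0.84 for S100a11, -0.89 to -0.38 for S100a13, -0.75 to -0.44 for S100a16 and 1.37 to 3.74 for S100b. The median of the 10 ranged from -0.81 to -0.28. Without division by length the ratio of S100a9 to S100a8 was 1.84, 1.74 and 2.64 in EMT6-P, EMT6-PTR and the metastasis, by construction. Depth limits S100b and S100a8, which had down to 4 and 80 counts in a tumor.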
